A study of Mus musculus with 40 samples.

Results

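DNA methylation was examined around the transcription starts of 8 genes of cholesterol metabolism: Srebf2, Hmgcs1, Idi1, Fdps, Fdft1, Sqle, Cyp51 and Dhcr7. All CpG cytosines listed within 5 kb (5000 bp) of a start of these genes were taken, whatever their values, on mouse build mm9. This gave 78 of the 400298 listed cytosines, in 5 of the 8 genes. Of the 78, 44 had 10 reads or more in at least 36 of 40 mice and were tested, out of 262317 tested cytosines in the series.

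The series measured liver DNA of 40 male C57BL/6J mice aged 9 weeks by reduced representation bisulfite sequencing (RRBS), in which DNA is cut with MspI, converted with bisulfite and sequenced, so that each read calls a cytosine methylated or not. Dams and pups received a low fat (LF) or a high fat (HF) diet. The groups are named by the maternal diet and then the diet after weaning, with 10 animals each: LL (dam LF, pup LF), LH (dam LF, pup HF), HL (dam HF, pup LF) and HH (dam HF, pup HF). All shared strain, sex, age and tissue, and no allele or transgene distinguished the groups. Dams had their diet before mating and until weaning, and by the study's methods the males of each cage were divided between both post-weaning diets. The cage and litter of each pup are not in the labels, so the tests treat mice as separate although some share a litter, and litter and maternal diet cannot be told apart. Reads at CpGs summed to between 2969907 and 23345592 per mouse. The liver label could not be checked against marker genes, since only DNA methylation was measured, and methylation of bulk liver is an average over its cell types.

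Cholesterol is made from acetyl-CoA through the mevalonate pathway, with the liver as a main site of synthesis. When sterols in the endoplasmic reticulum fall, the precursor of the transcription factor SREBP2, encoded by Srebf2, is cut and its active part enters the nucleus, where it switches on the enzymes of synthesis and the LDL receptor that takes up cholesterol from blood. CpG-rich promoters such as those of housekeeping enzymes are usually unmethylated, while CpGs inside transcribed genes are often methylated.

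The sequences below show where the reads fell. They are from the NCBIM37 assembly (mm9), 5′ to 3′ on the strand of the gene, with the CG of every listed cytosine in capitals. The Srebf2 upstream and Fdps intron stretches are shown because they hold the CpGs with the smallest unadjusted p-values among the genes, the others because they hold further upstream and intron CpGs outside UTRs. Some listed intron and upstream CpGs lie outside these stretches. The Srebf2 stretches lie upstream and in an intron at chr15:81977363-81977454 and chr15:81978373-81978482 (plus strand). The Fdps stretches lie in intron 1 at chr3:88905430-88905521 and upstream at chr3:88905903-88905954 (minus strand). The Fdft1 stretch lies upstream at chr14:63796634-63796687 (minus strand). The Dhcr7 stretches lie upstream at chr7:151008639-151008713 and in introns at chr7:151017882-151017929 and chr7:151026276-151026332 (plus strand).
Srebf2 upstream: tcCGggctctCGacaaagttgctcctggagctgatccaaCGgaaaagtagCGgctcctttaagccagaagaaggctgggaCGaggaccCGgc
Srebf2 intron: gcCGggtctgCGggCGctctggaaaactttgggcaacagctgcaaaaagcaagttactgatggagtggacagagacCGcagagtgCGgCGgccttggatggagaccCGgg
Fdps intron: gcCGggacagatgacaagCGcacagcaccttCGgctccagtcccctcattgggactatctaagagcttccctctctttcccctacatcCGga
Fdps upstream: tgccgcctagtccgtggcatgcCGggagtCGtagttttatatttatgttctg
Fdft1 upstream: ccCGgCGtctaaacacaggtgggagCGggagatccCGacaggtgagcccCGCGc
Dhcr7 upstream: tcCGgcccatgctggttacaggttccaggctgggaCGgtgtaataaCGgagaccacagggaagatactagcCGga
Dhcr7 intron: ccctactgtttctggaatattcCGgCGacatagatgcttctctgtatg
Dhcr7 later intron: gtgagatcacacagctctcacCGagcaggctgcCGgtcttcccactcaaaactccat
The Srebf2 upstream, Srebf2 intron, Fdps intron and Dhcr7 upstream stretches each begin and end at a CCGG, the site that MspI cuts, and each is 1 MspI fragment with the bases around its ends.

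Most tested cytosines were close to unmethylated, while the 5 in Dhcr7 introns had means of 90.3% to 96.9%. Among the 39 tested cytosines with a mean below 20% over mice, the 12 that were the inner C of a CCGG, where a read of an MspI fragment begins, had means of 3.16% to 5.81% (median 5.21%). The other 27 had means of 0% to 0.903% (median 0.233%). The ranges did not overlap. In reads, 611 of 12181 calls at the 12 cytosines were methylated against 68 of 25785 at the 27. The 32 further listed cytosines below 20% that 34 or 35 mice covered divided in the same way, with 5 at CCGG at 3.26% to 6.75% and 27 elsewhere at 0% to 1.05%.

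A like split was seen in unmethylated stretches over the rest of the genome. Outside these genes, 17415 CCGG cytosines beside unmethylated neighbours had a median of 5.35% (5th to 95th percentile 3.38% to 7.88%), against 0.367% (0% to 1.67%) at 83274 neighbouring CpGs off CCGG. Both sets were picked by a low mean of the CpGs off CCGG nearby, so the low values off CCGG are partly set by that choice. The CCGG values did not enter it. The 12 CCGG cytosines of the cholesterol genes lay near the median of these 17415, 1 of them (Fdps, upstream, 3.16%) below the 5th percentile. By library the mean at such CCGG cytosines ranged from 5.18% to 5.97%. It averaged 5.48% ± 0.237 (SD, n = 10) in LL, 5.48% ± 0.174 in LH, 5.41% ± 0.0853 in HL and 5.50% ± 0.231 in HH animals.

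**Figure D1:**
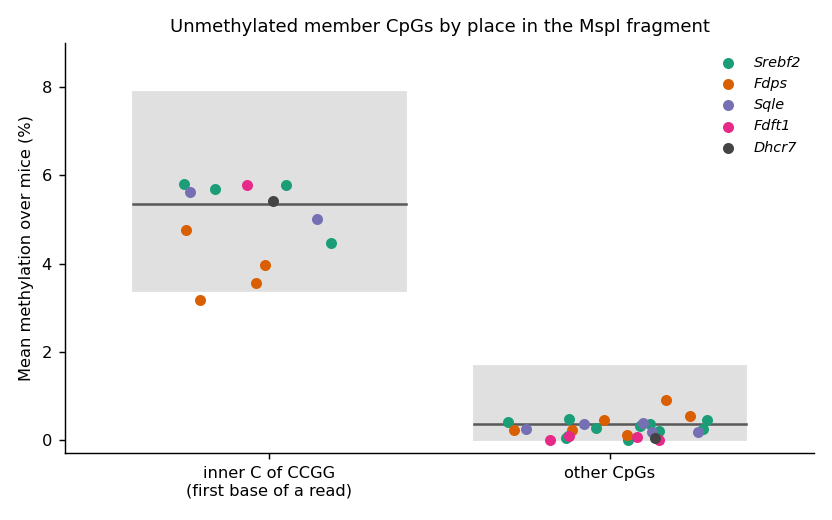
Mean methylation in percent (y axis) of the 39 tested member cytosines below 20%, placed by whether they are the inner C of CCGG or not; each point is 1 cytosine, coloured by gene. Grey boxes span the 5th to 95th percentile of like cytosines in unmethylated stretches of the rest of the series, picked by low values off CCGG. The lines are their medians (5.35% and 0.367%). The 12 and the 27 points do not overlap.

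**Figure D2:**
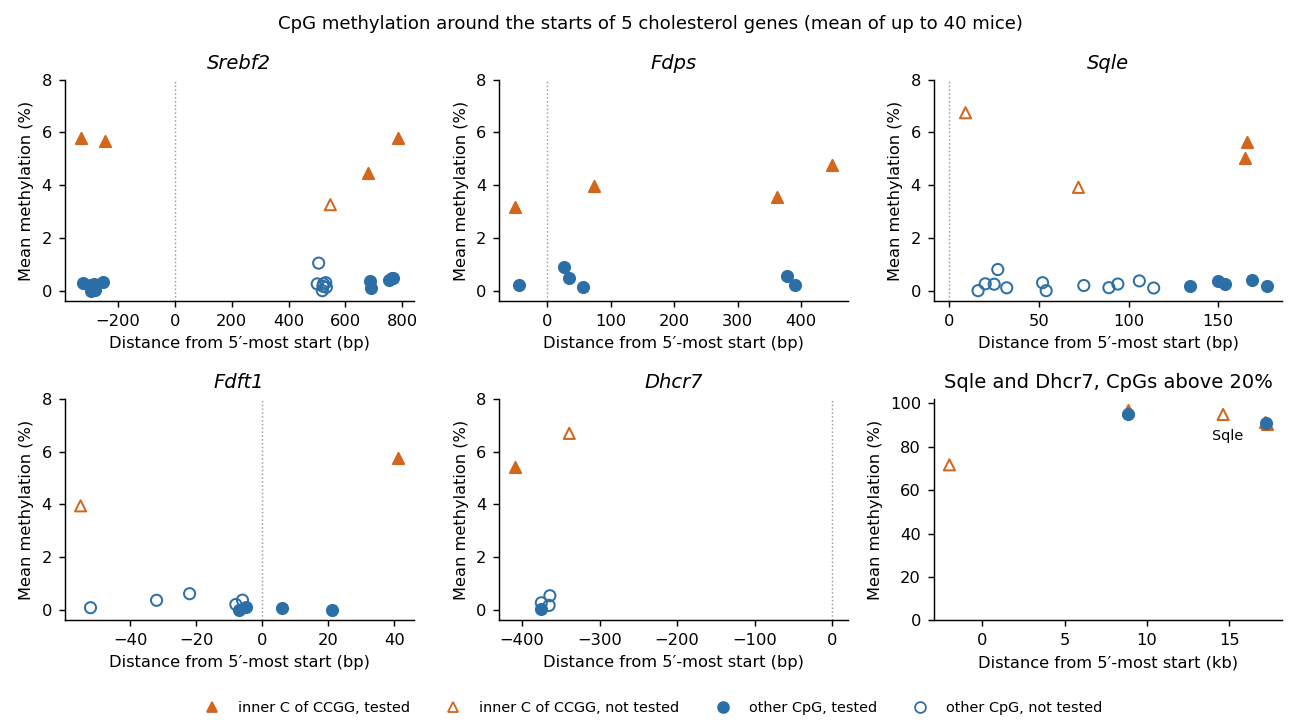
Mean methylation in percent against the distance from the 5′-most annotated start for the 78 listed cytosines; triangles are the inner C of CCGG, circles other CpGs, filled symbols were tested and open ones were covered in fewer than 36 mice. The last panel shows the 7 cytosines above 20%, from 71.6% to 96.9%, and the other panels those below.

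Srebf2 encodes SREBP2, the transcription factor that controls the other members. Its gene lies on chromosome 15 from 81977696 to 82035806 on the plus strand. Of 234 CpG cytosines of the reference within 5 kb of its start, 23 were listed and 15 tested, from 331 bp before the start to 784 bp after it, with a median of 25 reads. The 11 tested cytosines outside CCGG had means of 0% to 0.468%, and the 4 at CCGG 4.47% to 5.81%.

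The highest mean at Srebf2 was at chr15:81977365, the inner C of the CCGG 331 bp before the start. In LL animals, the lowest, median and highest values at this cytosine were 0%, 0.943% and 11.1%, and 5 of 10 mice were at 0. In LH animals they were 0%, 7.69% and 21.7%, with 1 mouse at 0. In HL animals they were 0%, 7.76% and 18.2%, with 2 mice at 0, and in HH animals 0%, 3.72% and 5.56%, with 3 mice at 0. All 4 groups overlapped. The higher means were in the groups whose diet changed at weaning, 8.88% ± 5.88 (SD, n = 10) in LH and 8.06% ± 6.85 in HL, against 3.16% ± 4.09 in LL and 3.14% ± 2.31 in HH.

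Among animals fed HF after weaning, those of HF dams differed from those of LF dams at this Srebf2 cytosine by -5.74 percentage points (HH minus LH, 95% confidence interval -9.93 to -1.54, permutation p = 0.00492, FDR 0.822). Among animals fed LF the difference between HF and LF dams had the other sign, 4.90 points (-0.397 to 10.2, permutation p = 0.0668, FDR 0.818). HF against LF after weaning gave 5.72 points in pups of LF dams (LH minus LL, 0.965 to 10.5, permutation p = 0.0186, FDR 0.808) and -4.92 points in pups of HF dams (HH minus HL, -9.72 to -0.118, permutation p = 0.0435, FDR 0.820). The interaction of both diets, the maternal difference in animals fed HF minus that in animals fed LF, was -10.6 points (unadjusted p = 0.00214, linear model, FDR 0.868). These comparisons share groups with each other, and none passed FDR <5%. Since this cytosine was picked with results of these mice known, its unadjusted p-values describe it and support nothing.

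The values rest on few methylated reads, 7 of 244 in LL, 21 of 275 in LH, 21 of 294 in HL and 9 of 308 in HH. The SD between mice within groups was 5.09 points, against 4.81 expected from counting reads alone. The CCGG at the other end of the same fragment, read on the opposite strand 244 bp before the start, had means of 3.96% ± 4.98 (n = 10), 6.25% ± 3.96 (n = 9), 7.52% ± 6.58 (n = 10) and 4.90% ± 3.88 (n = 8) in LL, LH, HL and HH. LH and HL again had the higher means there, with an interaction of -4.92 points (unadjusted p = 0.150, linear model, FDR 0.868). The 6 other cytosines of the fragment had means of 0% to 0.318%. Both CCGG cytosines of the Srebf2 intron stretch had interactions of smaller size and opposite sign to each other, 1.78 and -1.76 points (unadjusted p = 0.467 and 0.665, linear model). Outside CCGG in that stretch, chr15:81978459 had an interaction of the other sign to chr15:81977365, 1.91 points (unadjusted p = 0.0290, linear model, FDR 0.868), with means of 1.497% ± 2.26 (n = 9) in LL, 0.412% ± 1.23 (n = 9) in HH and 0% in LH and HL. A further CCGG cytosine of the intron, chr15:81978243, was covered in 35 mice and not tested. Its means were 1.11% ± 3.33 (n = 9) in LL, 5.43% ± 6.20 (n = 8) in LH, 4.98% ± 4.47 (n = 10) in HL and 1.36% ± 1.91 (n = 8) in HH, again higher in LH and HL, and all groups overlapped. Across 40 mice the value at chr15:81977365 had a Pearson's r of -0.205 (permutation p = 0.198) and a Spearman's rho of -0.038 (permutation p = 0.816) with the mean of the library at CCGG cytosines, and r was -0.258 without the 2 libraries farthest from the median. With that mean as a covariate, the difference in animals fed HF was -5.70 points. Whether the place of the cytosine at the fragment end has a part in these values was not tested.

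**Figure D3:**
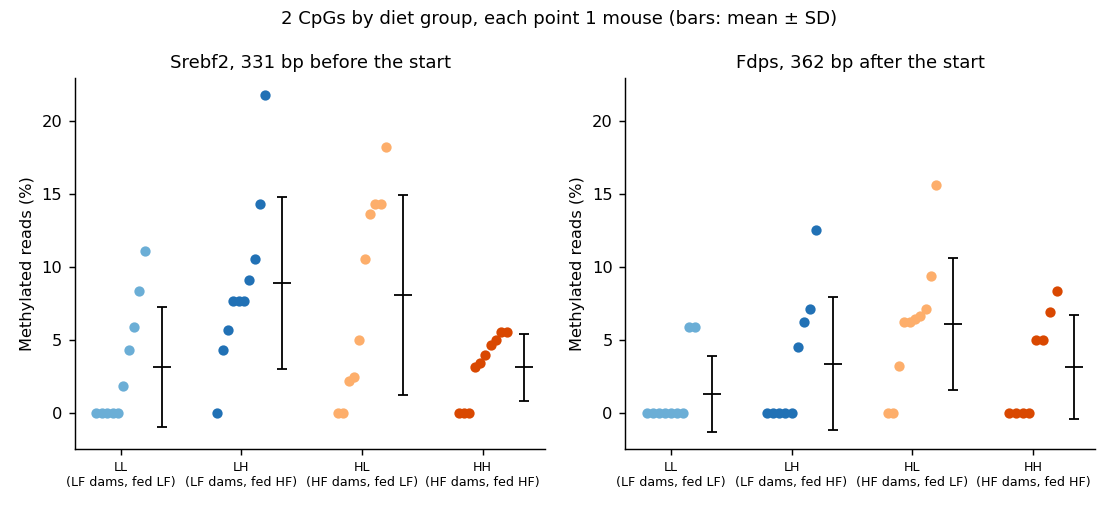
Percent of methylated reads per mouse (y axis) at the Srebf2 cytosine 331 bp before the start and the Fdps cytosine 362 bp after the start in the 4 diet groups; each point is 1 mouse, bars are mean ± SD. All groups overlap and every group holds mice at 0, with the highest value at 21.7% in the left panel.

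Hmgcs1 encodes the cytosolic synthase that makes HMG-CoA, the substrate of the rate-limiting HMG-CoA reductase. It is not named in the annotation used here. Its RefSeq promoter of 300 bases matched none of the chromosomes of NCBIM37 and 2 unplaced contigs, so Hmgcs1 was not analysed here.

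Idi1 encodes the isomerase that interconverts the C5 units from which sterols are built. None of the 112 CpG cytosines of the reference within 5 kb of its start on chromosome 13, with 6 CCGG sites, was listed.

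Fdps encodes farnesyl diphosphate synthase, which joins these units into farnesyl diphosphate. The gene lies on chromosome 3 from 88897514 to 88905881 on the minus strand. All 10 listed cytosines were tested (median 21 reads), of 151 in the reference. They lay from 51 bp before the start to 449 bp after it, in the flank, the 5′ UTR and intron 1. The 6 outside CCGG had means of 0.125% to 0.903% and the 4 at CCGG 3.16% to 4.75%, the highest at chr3:88905432.

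At chr3:88905519, in intron 1, 362 bp after the start and again at CCGG, the 9 LL animals had a lowest, median and highest value of 0%, 0% and 5.88%. The 10 HL animals had 0%, 6.35% and 15.6%, the 9 LH animals 0%, 0% and 12.5%, and the 8 HH animals 0%, 2.50% and 8.33%. All groups overlapped, and 4 mice have no value there in the deposited table. The means of LL and HL were 1.31% ± 2.59 and 6.10% ± 4.54, a difference of 4.79 points (95% confidence interval 1.15 to 8.43, n = 9 and 10, exact permutation p = 0.00801, FDR 0.818), resting on 2 of 179 and 15 of 210 methylated reads. In animals fed HF the difference between HF and LF dams was -0.222 points (-4.47 to 4.02, n = 8 and 9, exact permutation p = 0.933). The interaction was -5.01 points (unadjusted p = 0.0647, linear model, FDR 0.868). This cytosine too was picked with results of these mice known, so its interval and p-values describe it and support nothing. The CCGG at the other end of this fragment, chr3:88905432, had means of 3.75% ± 2.96, 5.18% ± 5.26, 5.94% ± 4.20 and 4.13% ± 2.54 (n = 10 each) in LL, LH, HL and HH, and the maternal difference in animals fed LF was 2.19 points (permutation p = 0.196). The SD between mice at chr3:88905519 was 3.92 points against 4.48 from counting reads. Over 36 mice its Pearson's r with the library mean at CCGG was 0.0421 (permutation p = 0.785), Spearman's rho 0.166 (permutation p = 0.330) and r without the 2 farthest libraries 0.0966. Apart from the values without 2 libraries, 4 correlations with the library mean were computed, and their Benjamini-Hochberg adjusted p-values were 0.660 or 0.816.

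Fdft1 encodes squalene synthase, the first enzyme committed to sterols. Of 11 listed cytosines around its start on chromosome 14 (gene from 63763990 to 63796630, minus strand), 5 were tested. The 4 outside CCGG had means of 0% to 0.0916%. The cytosine at CCGG, chr14:63796589 in the coding exon 41 bp after the start, had a mean of 5.77%. Its group means ran from 4.26% ± 4.40 in LL to 7.60% ± 7.37 in HL.

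Sqle encodes squalene epoxidase, the oxygen-dependent step that follows. Of 22 listed cytosines (gene on chromosome 15 from 59146632 to 59162747, plus strand), 7 were tested, all in the 5′ UTR. The 5 outside CCGG had means of 0.187% to 0.398%. The 2 at CCGG were the same site read from both sides, chr15:59146797 with 5.02% and chr15:59146798 with 5.63%. At chr15:59146797 the maternal difference in animals fed HF was 5.24 points, from 2.65% ± 3.25 in LH to 7.89% ± 7.35 in HH (n = 9 and 8, exact permutation p = 0.0883). At chr15:59146798, on the opposite strand of the same site, it was 1.13 points (n = 10 LH and 8 HH, exact permutation p = 0.683), while in animals fed LF it was -4.58 points (permutation p = 0.0782). The interactions at the 2 cytosines were 5.54 and 5.72 points (unadjusted p = 0.162 and 0.128, linear model, FDR 0.868), of the other sign to that at chr15:81977365 of Srebf2. An intron cytosine at chr15:59161252, covered in 34 mice and not tested, stood at 94.8%.

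Cyp51 encodes lanosterol demethylase, the first enzyme after the sterol rings are closed. None of the 175 reference CpG cytosines within 5 kb of its 3 starts on chromosome 5, with 12 CCGG sites, was listed.

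Dhcr7 encodes the reductase of the last step of cholesterol synthesis. Its gene, with 9 annotated starts on chromosome 7 (from 151009050 to 151034315, plus strand), was the only one with both unmethylated and methylated tested cytosines. Both tested upstream cytosines, in the stretch that holds the CCGG cytosine 409 bp before the 5′-most start, had means of 5.41% at CCGG and 0.0496% outside it, and both lay nearer to a start of the neighbouring gene Nadsyn1 and cannot be assigned to Dhcr7 alone. The 5 tested intron cytosines had means of 90.3% to 96.9%. Outside the test, a CCGG cytosine 1990 bp upstream (chr7:151007060, 33 mice) stood at 71.6%, and it too lay nearer to Nadsyn1, at 1593 bp.

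At the methylated Dhcr7 cytosine with the highest mean, chr7:151017904, LL animals had a lowest, median and highest value of 94.1%, 100% and 100%. The values were 83.3%, 96.1% and 100% in LH, 93.3%, 97.0% and 100% in HL, and 92.3%, 94.1% and 100% in HH animals. All groups overlapped and reached full methylation. At chr7:151017907, 3 bp further, the interaction was -9.46 points (unadjusted p = 0.0238, linear model, FDR 0.868), with group means of 93.4% ± 5.65, 97.9% ± 2.95, 97.3% ± 4.34 and 92.4% ± 9.27 in LL, LH, HL and HH. At chr7:151017904 the interaction had the other sign, 2.17 points (unadjusted p = 0.387, linear model). At chr7:151026310 in a later intron, HH animals had a mean of 85.4% ± 10.5 and LH animals 94.1% ± 7.03, a difference of -8.72 points (n = 9 each, exact permutation p = 0.0513).

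Each maternal comparison and each post-weaning comparison was made over all tested cytosines, and no cytosine of the cholesterol genes passed FDR <5%. In animals fed HF, HF against LF dams gave 0 member cytosines at FDR <5% (0% of the series) and 1 of 36 at an unadjusted p below 0.05, against 3.72% of all cytosines. In animals fed LF the counts were 0 (0% of the series) and 1 of 34, against 3.99%. For HF against LF after weaning, pups of LF dams gave 0 (0.00084% of the series) and 1 of 34, against 4.03%, and pups of HF dams gave 0 (0.00124%) and 1 of 35, against 4.06%. The interaction gave 0 (0%) and 3 of 41, against 4.18%. Cytosines at 0 in every mouse of both groups have no p-value, hence fewer than 44. The members' shares at the unadjusted threshold are thus 2.78%, 2.94%, 2.94%, 2.86% and 7.32%, near the background in the 4 pair-wise comparisons. The 1 cytosine counted was chr3:88905519 of Fdps in animals fed LF and chr15:81977365 of Srebf2 in the other pair-wise comparisons. The 3 of the interaction include chr15:81977365. Both were picked with results of these mice known, so these shares support nothing about the members. The exact Wilcoxon test, a quasi-binomial model on reads and limma also gave 0 members at FDR <5% wherever they were run.

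The size and error of the differences varied with the kind of cytosine. At the 27 unmethylated cytosines outside CCGG, differences between groups lay between -1.71 and 1.71 points in the 4 pair-wise comparisons, with median standard errors of 0.447 to 0.750 over the 17 to 19 that had one. At the 12 unmethylated CCGG cytosines they ran from -5.74 to 5.72 points with median standard errors of 2.03 to 2.34, and at the 5 methylated Dhcr7 cytosines from -8.72 to 4.53 points with median standard errors of 3.02 to 3.43. No difference of these sizes passed FDR <5%. Of 41 tested cytosines with any methylated read, 22 had a larger SD between mice within groups than counting reads gives, and 3 had more than 1.5 times as large a one, at means below 1%. The median ratio of both SDs was 1.03.

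**Figure D4:**
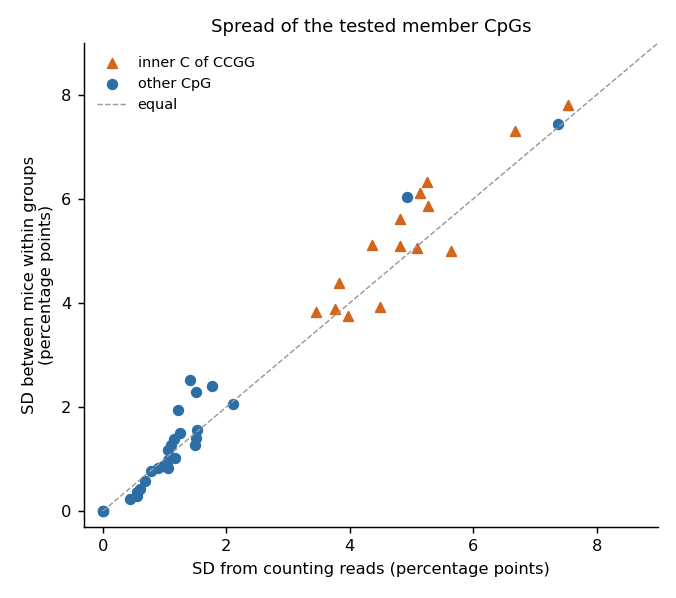
SD between mice within diet groups (y axis) against the SD expected from counting reads (x axis), both in percentage points, for the 44 tested cytosines; triangles are at CCGG, circles elsewhere, and the dashed line marks equal values. The points follow the line, with a median ratio of 1.03.

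Averaging the tested cytosines of a gene gave a value per gene and mouse. Each cytosine's deviation from its mean over mice was averaged and added to the mean of the gene, so that a low value can fall slightly below 0. The means over mice were 1.63% at Srebf2, 1.69% at Fdps, 1.70% at Sqle, 1.18% at Fdft1 and 67.2% at Dhcr7. Without CCGG cytosines, an alternative added after seeing the data, they were 0.260%, 0.425%, 0.275%, 0.0373% and 62.1%.

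By the pair-wise tests of means and the linear model, Srebf2 was the only one of the 5 genes with an unadjusted p below 0.05, and this depended on the setting. With reads summed over the window, both pair-wise differences of Srebf2 below lost it (unadjusted p = 0.0733 and 0.129), and Fdps passed it in animals fed LF (higher in HL than in LL, unadjusted p = 0.0484) and after weaning from HF dams (lower in HH than in HL, unadjusted p = 0.0321). In animals fed HF the Srebf2 value, averaged over cytosines, had a lowest, median and highest of 0.284%, 1.31% and 2.38% in HH and 1.27%, 1.71% and 3.05% in LH. The groups overlapped, with means of 1.33% ± 0.532 and 1.94% ± 0.628 (SD, n = 10 each) and a difference of -0.608 points (95% confidence interval -1.15 to -0.0615, unadjusted p = 0.0312, FDR 0.967). In pups of HF dams, HF against LF after weaning gave -0.565 points (-1.09 to -0.0366, unadjusted p = 0.0374, FDR 0.826), and the interaction was -1.13 points (-1.91 to -0.355, unadjusted p = 0.00549, FDR 0.825). Without CCGG cytosines these values were -0.267, -0.0718 and -0.117 points (unadjusted p = 0.211, 0.528 and 0.657). The gene value contains the cytosine at chr15:81977365 and is no separate evidence. At Dhcr7 the maternal difference in animals fed HF was -2.54 points (-5.15 to 0.0646, unadjusted p = 0.0553, FDR 0.967), and the exact Wilcoxon test gave an unadjusted p of 0.0433 (FDR 0.969). With summed reads the difference was -1.22 points (unadjusted p = 0.908).

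Over genes, 0 of 5 members passed FDR <5% in any comparison. The share of all genes was 0% for the maternal comparisons in animals fed HF and in animals fed LF, 0% after weaning in pups of LF dams, 0.00554% in pups of HF dams and 0% for the interaction. At an unadjusted p below 0.05 the members numbered 1, 0, 0, 1 and 1 in this order, each time Srebf2, against 4.86%, 5.43%, 5.36%, 5.93% and 5.48% of all genes.

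**Figure D5:**
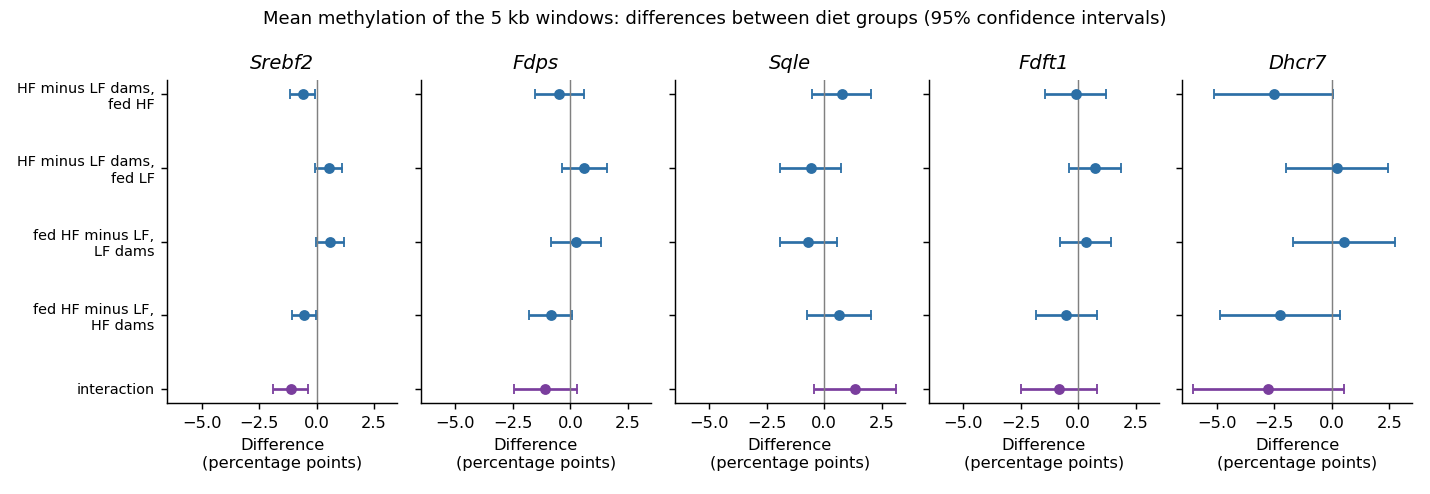
Differences between diet groups in the gene value (x axis, percentage points) for the 5 covered genes, with 95% confidence intervals; rows are the 4 pair-wise comparisons and the interaction. All intervals of Fdps, Sqle, Fdft1 and Dhcr7 cross 0, and 3 of the 5 of Srebf2 do not.

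The wider pathway was described by lists. Of 23 genes of cholesterol synthesis, 15 had tested cytosines within 5 kb of a start. This list includes all members but Srebf2, so its counts hold their cytosines again. None passed FDR <5%, and 3 of 144, 5 of 141, 1 of 135, 1 of 147 and 3 of 159 had an unadjusted p below 0.05 in animals fed HF, in animals fed LF, after weaning from LF dams, after weaning from HF dams and for the interaction, against 3.72%, 3.99%, 4.03%, 4.06% and 4.18% of all cytosines. The smallest p-values were at Mvk, mevalonate kinase, in animals fed HF (71.6% ± 8.71, n = 10, against 85.3% ± 8.84, n = 8), at Fdps in animals fed LF as above, at Mvk again after weaning from LF dams (98.8% ± 2.80 against 93.5% ± 7.43) and at Ggps1, geranylgeranyl diphosphate synthase, after weaning from HF dams (2.78% ± 2.66 against 8.66% ± 5.45) and for the interaction (-8.21 points). All of these were CCGG cytosines with an FDR of 0.808 or more.

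Of 9 regulators of sterol sensing, 7 had tested cytosines. None passed FDR <5%, and 4 of 100, 4 of 95, 8 of 96, 4 of 96 and 7 of 105 were below the unadjusted threshold in the same order. These are 4%, 4.21%, 8.33%, 4.17% and 6.67% of the list, against 3.72%, 3.99%, 4.03%, 4.06% and 4.18% of all cytosines. The list includes Srebf2. In every comparison but that in animals fed LF the count holds chr15:81977365 again, and for the interaction also chr15:81978459. These counts are therefore not separate from those of the members. Outside Srebf2 the smallest p-values of this list were at Nr1h2, which encodes the oxysterol receptor LXR beta, in animals fed LF (2.86% ± 2.53 against 9.47% ± 7.26), at Nr1h3, which encodes LXR alpha, after weaning from LF dams (4.67% ± 3.37 against 1.13% ± 2.63), and at Scap, the SREBP escort protein, after weaning from HF dams (98.0% ± 3.02 against 93.5% ± 3.83). Again all were CCGG cytosines.

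Of 17 genes of cholesterol uptake, storage and efflux, 15 had tested cytosines, none at FDR <5%. Below the unadjusted threshold were 5 of 116, 6 of 121, 3 of 114, 6 of 121 and 4 of 123, against the same 3.72%, 3.99%, 4.03%, 4.06% and 4.18% of all cytosines. The smallest p-values of these comparisons, the one after weaning from HF dams left out, were at Abcg5, a sterol exporter, in animals fed HF (12.8% ± 6.53 against 5.95% ± 4.34), and at Npc1l1, the transporter of dietary cholesterol, in animals fed LF (79.7% ± 10.5 against 90.5% ± 5.68), after weaning from LF dams (81.0% ± 6.02 against 90.5% ± 5.68) and for the interaction (14.3 points). Both Npc1l1 differences share the LL animals.

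The promoters were also searched for motifs, from 250 bp before to 50 bp after each start on both strands. The promoters held 30 CG at Srebf2, 33 at Fdft1, 17 at Fdps and 9 at Idi1, against a median of 10 over 70012 annotated starts. Genes with several starts varied, with 2 to 45 CG at Sqle, 5 to 29 at Cyp51 and 4 to 23 at Dhcr7. The sterol element of the LDL receptor, TCACNCCAC, was in none of the promoters of the 7 placed members and in 1.13% of all. CCAAT, the NF-Y motif, was present once at Srebf2, 132 bp before the start, and 3 times at Fdps, against 34.9% of all promoters with at least 1. GGGCGG, the Sp1 motif, was present 5 times at Srebf2 and 0 times at Fdps, against 40.3% of all promoters with at least 1. At Fdft1 and Idi1, CCAAT was present 2 times each, and GGGCGG 2 times and 1 time. Sqle had CCAAT at every start and GGGCGG at some, and Cyp51 and Dhcr7 had each of them at some starts only. CACGTG was in no promoter of the placed members and in 7.30% of all. A match is a description of letters in this window, and the CpGs at 331 and 244 bp before the Srebf2 start lie outside or just inside it.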

How the data were processed

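Liver DNA of 40 mice was cut with MspI, size selected, bisulfite converted, sequenced in single-end reads and aligned by the authors with Bismark to mm9; its version is not given in the sources used here. For each CpG cytosine and mouse the authors deposited raw counts of methylated and of total reads and the methylated fraction, not normalized, and left the total empty below 10 reads. Of 40 mice, each had its group from the labels; 0 columns were unmapped. CpGs with at least 10 reads in 36 mice (90%) were kept, as in the study's methods, although the deposited table lists others. Annotation was GENCODE vM1 and sequence NCBIM37; Hmgcs1 came from RefSeq.

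Percent methylation was tested by Student's test for each CpG and gene value within the 4 pair-wise comparisons, and by a linear model for the interaction, with Benjamini-Hochberg adjustment over all CpGs or genes tested. Named CpGs also had permutation tests, two-sided, with 100000 resamples, or exact where a group had fewer than 10 mice. The members, gene lists and tests were chosen with earlier results of these data known. Named CpGs were the 2 given by position (Srebf2 and Fdps), the highest mean of each gene and the smallest p of each comparison, and others were named after their values were seen. Pathway genes were named by the smallest p of their list. A gene value was the mean of the gene plus the mean deviation of its CpGs. The SD from counting reads covers counting error only, since reads of 1 fragment need not be separate molecules. Alternatives were the exact Wilcoxon test, a quasi-binomial model (dispersion at least 1), limma on log2 read ratios with 0.5 added, other coverage minimums, covariates, a left-out library, windows of 1 kb and summed reads. Scripts were tested on simulated data. Python 3.11.15, numpy 2.4.6, pandas 2.3.3, scipy 1.17.1, R 4.3.3 and limma 3.58.1 were used. One result for a gene of the uptake list is not reported here.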

Additional observations from a re-analysis of the deposited data

Results flagged for a closer look

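At the Sqle cytosine chr15:59146798, 1 LH mouse (dam LF, pup HF) stood at 20%, far from the next value of 9.09% in its group (n = 10). At the Fdft1 cytosine chr14:63796589, 1 HH mouse (dam HF, pup HF) stood at 20.8%, far from the next value of 10.6% in its group (n = 10). The gap to the next mouse, divided by the range of the group, was 0.545 and 0.492, above the 95% critical value of Dixon's test. Of 44 groups of values examined, chance would flag about 1 in 20 if values were normal and groups separate, and 2 were flagged. Many mice stood at 0 and the gene values contain named cytosines, so that rate need not hold here. Both are CCGG cytosines. No interaction of both diets at a named cytosine or gene value passed FDR <5%.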

How the results depend on the processing

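The count of member cytosines at FDR <5% was 0 in the 5 comparisons under all 10 alternatives (49 values, since the Wilcoxon test gives no interaction), with a smallest FDR of 0.729. The count of genes was 0 under all 8 alternatives for gene values (39 values), with a smallest FDR of 0.666. Counts at an unadjusted p below 0.05 ran from 0 to 4 and moved by more than 1.5 times in 20 of 49 values. The differences at the Srebf2 cytosine kept their sign in all 39 values, and the post-weaning difference from HF dams lost its unadjusted p in 2, the Wilcoxon test (p = 0.221) and limma (p = 0.0928).

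At the Fdps cytosine the difference in animals fed HF changed sign with the quasi-binomial model (1.14 points of summed reads) and limma (0.0047 on the log2 scale), and limma gave the interaction an unadjusted p of 0.0429. Gene values of Dhcr7 changed sign with summed reads in animals fed LF (-7.06 points), after weaning from LF dams (-14.2) and for the interaction (5.84), and in animals fed LF with windows of 1 kb (-0.299) and with log10 reads as a covariate (-0.119). The Fdft1 difference in animals fed HF changed sign without the library with the fewest reads (0.0421). Without CCGG cytosines, chosen after seeing the data, the sign changed in animals fed HF at Sqle (-0.264) and Fdft1 (0.0576), in animals fed LF at Srebf2 (-0.150), Fdps (-0.0040) and Sqle (0.144), after weaning from LF dams at Fdps (-0.307) and Sqle (0.0853), after weaning from HF dams at Sqle (-0.323), and for the interaction at Sqle (-0.408). None of these had an unadjusted p below 0.05 (Dhcr7 with summed reads 0.122, 0.0908 and 0.608), and the cause was not tested. Of the gene values, 5 lost an unadjusted p below 0.05 and 10 gained one, all at Srebf2, Fdps or Dhcr7. Apart from all CpGs as deposited, Srebf2 gained it in animals fed LF with log10 reads as a covariate (linear model, p = 0.0327). After weaning from LF dams it gained it in the Wilcoxon test (p = 0.0355) and with the library mean at CCGG as a covariate (linear model, p = 0.0413). Dhcr7 gained it in animals fed HF with all CpGs as deposited (p = 0.0370) and in the Wilcoxon test, there also after weaning from HF dams (p = 0.0433 in both). The SD expected from counting reads had a median of 4.81 points at the unmethylated CCGG cytosines and 6.67 at the methylated ones. At the unmethylated cytosines outside CCGG it was 1.05. A minimum of 20 reads left 2 member cytosines with a p-value in animals fed HF. No paired analysis was possible because replicate numbers only name mice, and the labels do not say which mice of both post-weaning diets came from 1 cage.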
